A study of Homo sapiens with 6 samples.

Results

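The 50 genes described here build and run mitosis: CDK1 with its cyclins, the mitotic kinases, the spindle assembly checkpoint, the kinetochore, the spindle motors, the cytokinesis machinery and the proteins that condense chromosomes. They were chosen by name from the 18236 genes of the expression table, by a rule that uses none of their values but was set with earlier results of these data known. All 50 were present and all 50 passed the filter of a mean of at least 10 normalized counts. RNA was sequenced from 3 replicates each of a pair of HCT116 colorectal cancer cell lines in which gene targeting left only 1 copy of CTNNB1, which encodes β-catenin. The mutant line (CTNNB1 -/Δ45) kept the allele whose deletion stabilizes β-catenin and had its wild-type allele disrupted. The wild-type line (CTNNB1 WT/-) kept the intact allele and had the mutant allele disrupted. Both grew in McCoy-5A medium with serum, both descend from the same cancer line, and each genotype was represented by 1 line, so a difference between genotypes and a difference between lines cannot be told apart. No label said that replicates were separate cultures, so a p-value here weighs a difference against the scatter of 3 samples a line, which may be technical.

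Cells enter mitosis when cyclin B activates the kinase CDK1, and they leave it when the anaphase-promoting complex destroys cyclin B and securin. Most RNAs of this machinery are made in late S phase and G2 under FOXM1, B-MYB and the MuvB proteins, and are repressed by the DREAM complex in resting cells. Their promoters often hold a CHR element (cell cycle genes homology region), which the MuvB proteins contact, and CCAAT boxes, which bind NF-Y. In a bulk sample, fewer cells in G2 or mitosis and less RNA per cell cannot be told apart.

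The promoters of 8 members are shown because they hold a CHR in genes that did and genes that did not differ between the lines. All but NCAPG also hold a CCAAT box in the stretch shown. Each line gives 120 bases before and 30 bases after the RefSeq start site of the gene on GRCh38.p14, in the direction of transcription. Capitals mark a CHR (TTTGAA or TTCGAA, either strand) or a CCAAT box (either strand, so ATTGG on the strand shown), and in CDCA8 the CHR and an ATTGG share a base.
KIF11 (chr10:92593010-92593159, plus strand): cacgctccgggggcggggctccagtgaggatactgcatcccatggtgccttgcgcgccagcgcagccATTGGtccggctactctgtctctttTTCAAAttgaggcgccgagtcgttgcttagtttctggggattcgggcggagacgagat
SPC25 (chr2:168890401-168890550, minus strand): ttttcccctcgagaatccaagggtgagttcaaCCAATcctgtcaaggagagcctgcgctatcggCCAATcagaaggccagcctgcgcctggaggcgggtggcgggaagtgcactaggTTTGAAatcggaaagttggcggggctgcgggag
KIF4A (chrX:70289984-70290133, plus strand): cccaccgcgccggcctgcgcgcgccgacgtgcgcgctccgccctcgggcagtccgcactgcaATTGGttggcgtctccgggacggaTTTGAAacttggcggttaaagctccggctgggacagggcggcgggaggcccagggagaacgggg
NCAPG (chr4:17810859-17811008, plus strand): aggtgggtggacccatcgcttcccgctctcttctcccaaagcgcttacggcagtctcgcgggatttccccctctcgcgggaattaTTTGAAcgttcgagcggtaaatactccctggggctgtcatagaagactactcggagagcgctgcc
PLK1 (chr16:23678769-23678918, plus strand): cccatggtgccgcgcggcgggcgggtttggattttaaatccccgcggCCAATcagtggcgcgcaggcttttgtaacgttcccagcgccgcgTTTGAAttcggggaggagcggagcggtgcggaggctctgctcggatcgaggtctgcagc
CCNB2 (chr15:59105026-59105175, plus strand): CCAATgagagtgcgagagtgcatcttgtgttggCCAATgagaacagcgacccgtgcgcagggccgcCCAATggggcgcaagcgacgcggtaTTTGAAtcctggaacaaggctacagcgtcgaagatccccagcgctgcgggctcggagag
CDCA8 (chr1:37692396-37692545, plus strand): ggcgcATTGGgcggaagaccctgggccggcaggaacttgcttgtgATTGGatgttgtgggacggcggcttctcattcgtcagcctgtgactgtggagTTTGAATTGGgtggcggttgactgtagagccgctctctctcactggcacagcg
CDC20 (chr1:43358861-43359010, plus strand): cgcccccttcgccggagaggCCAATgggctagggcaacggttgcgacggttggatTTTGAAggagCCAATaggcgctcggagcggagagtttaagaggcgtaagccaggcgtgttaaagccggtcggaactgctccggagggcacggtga

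KIF11, SPC25, KIF4A and NCAPG were higher in mutant cells, CDC20 was lower in mutant cells in every sample, and PLK1, CCNB2 and CDCA8 were called in neither direction, as given below. A CHR stood at -28 in KIF11, -29 in PLK1 and CCNB2, -34 in KIF4A and -35 in NCAPG, counted from the start site. It stood closer to the start in SPC25, at -3, and in CDCA8, at -23, and farther away in CDC20, at -65. Promoters of 300 bases were matched for 43 of the 50 members, and AURKA, BIRC5, BUB3, FOXM1, TPX2, TTK and UBE2C had none. Of the 56 matched member promoters (some genes have several starts), 62.5% held a CHR, 71.4% a CCAAT box and 48.2% both, where 16.4%, 34.6% and 6.38% of all 35116 promoters of that length did. By gene, 32 of the 43 members (74.4%) held a CHR in at least 1 promoter, against 19.5% of all genes. The median log2 fold change, mutant over wild-type, was 0.67 over the 32 members with a CHR and 0.09 over the 11 without. Of these 32 and 11, limma called 11 and 2 higher in mutant cells at an adjusted p under 0.05, where it called 17.3% of all genes tested higher. Over all genes tested the median was 0.38 for the 1677 with a CHR and 0.25 for the 9249 without. Split by CCAAT box, the order was the reverse, with a median of 0.57 over the 34 members with a box and 0.72 over the 9 without. Of these 34 and 9, limma called 9 and 4 higher. These matches describe letters in a window, and binding was not measured.

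Reads summed over genes ranged from 21.8 to 57.9 M a sample, and the deposited values, gene counts that the authors divided by a size factor per sample, summed to 35.8 to 37.3 M. Both samples numbered 1 stood apart from their line, as described for the members below. CTNNB1 itself had 18704, 17838 and 18582 normalized counts in mutant cells and 18594, 12532 and 12923 in wild-type cells, and its RNA level does not tell the alleles apart. Of the 5 epithelial markers of HCT116, all present, limma called CDH1 and EPCAM lower in mutant cells. KRT8 and KRT19 had negative log2 fold changes that limma did not call (-0.29 and -0.53). KRT18 went the other way, also not called (0.49, adjusted p = 0.147 from limma). The summed epithelial markers lay between 44770 and 49637 normalized counts in mutant samples, against 57729 to 60651 in wild-type samples. PTPRC, CD3E, PECAM1, CDH5 and LUM, which define immune, endothelial and fibroblast cells, had under 10 normalized counts in every sample. Of the other markers of those cells, COL1A1 and CD68 were well above that level in both lines. The summed fibroblast markers lay between 1770 and 4232 in mutant samples, against 3367 to 4520 in wild-type samples. The summed immune markers lay between 725 and 1298 in mutant samples, against 3347 to 5273 in wild-type samples, nearly all of it CD68, and the endothelial markers between 65.3 and 89.2, against 118 to 152. Their part in the results was not tested.

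The RNA of 16 of the 50 members was higher in mutant than in wild-type cells and that of none was lower, at an adjusted p under 0.05 from limma over the 14539 genes tested. The 16 were CDK1, FOXM1, AURKA, BIRC5, BUB1B, ESPL1, SGOL2, CENPA, NUF2, SPC25, KIF11, KIF4A, KIF23, SMC4, NCAPG and NCAPH. Over all genes, 17.3% were called higher and 10.0% lower, which is the background for the 16 and the 0. At an unadjusted p under 0.05, 31 members were higher and 3 lower, where 4703 of the 14539 genes were higher and 2585 lower. The log2 fold change was positive for 44 members and negative for 6, with a median of 0.65. All genes had a median of 0.24 on the deposited scale and 0.01 when the scale was set by edgeR or DESeq2, and the members' median relative to all genes was 0.40 on the deposited scale, 0.37 with edgeR and 0.38 with DESeq2. Folds in the text are log2 fold changes of normalized counts plus 1, mutant over wild-type, with their standard error (SE, n = 3 a line).

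On whole reads recovered from the values, edgeR called 10 members higher and 1 lower, where 12.3% and 11.2% of all genes were called. All 10 were among the 16, and CDK1, BIRC5, ESPL1, SGOL2, KIF4A and NCAPG were not called by edgeR, with adjusted p between 0.052 and 0.158. DESeq2 called 16 members higher and 3 lower, where 21.7% and 20.6% of all genes were called. Its higher members were 15 of the 16 of limma, without BIRC5, together with SMC2. The lower members were CDC20 with edgeR, and CDC20, PTTG1 and SPC24 with DESeq2. By ranges alone, 26 members lay higher in every mutant than in every wild-type sample and 2, CDC20 and PTTG1, lay lower, where 26.6% and 19.1% of all genes did. The ranges of the other 22 members overlapped. On the scale of edgeR or DESeq2 the fold changes of CDC25B, AURKB, CDCA8, KIF2C, KIF20A, NCAPD2 and MKI67, given below at 0.00 to 0.17, were negative and not called. The plot of fold changes orders the members by role.

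**Figure D1:**
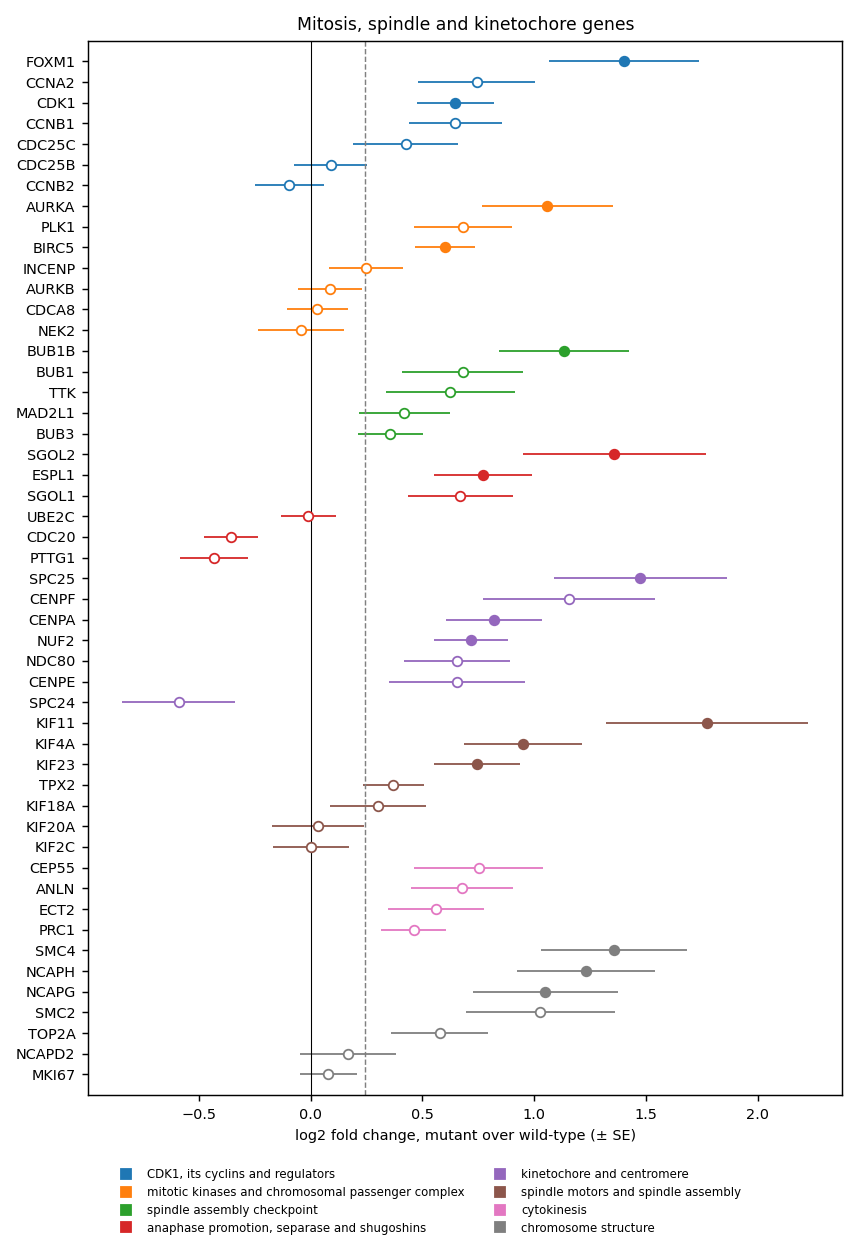
Log2 fold change (mutant over wild-type, limma, bars are ± SE, n = 3 a line) of the 50 members, coloured by role, with filled points for the 16 members with an adjusted p under 0.05 and open points for the rest. The dashed line is the median of all genes tested (0.24), and members range from SPC24 at -0.59 to KIF11 at 1.77.

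Wild-type replicate 1 was above wild-type replicates 2 and 3 in 44 of the 50 members (88.0%), where it was in 62.3% of all genes tested. It lay closer on the log2 scale to the mean of mutant replicates 2 and 3 than to that of wild-type replicates 2 and 3 in 33 members (66.0%), against 43.5% of all genes. Mutant replicate 1 lay closer to wild-type replicates 2 and 3 than to mutant replicates 2 and 3 in 9 members, against 48.2% of all genes. Between the samples numbered 1, the members differed by a median of 0.10 on the log2 scale, mutant minus wild-type, against 0.80 between those numbered 2 and 0.94 between those numbered 3. All genes differed by -0.05, 0.39 and 0.39. The number names a sample, and no label says that it pairs the lines.

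**Figure D2:**
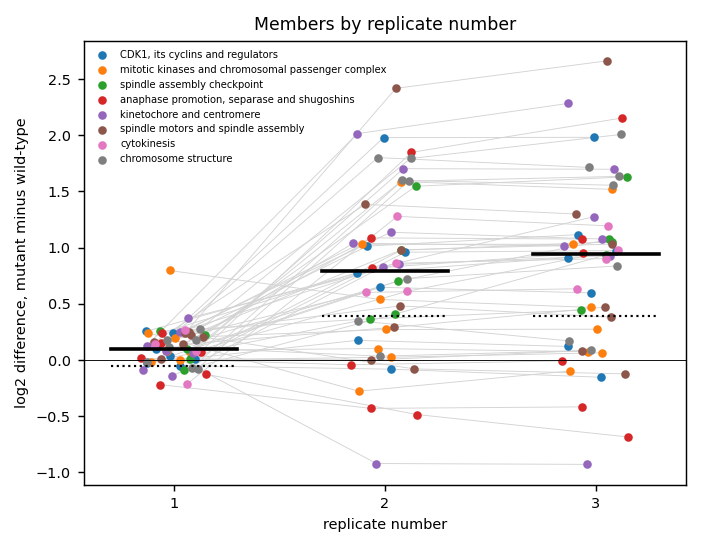
Log2 difference, mutant minus wild-type, between the samples that share a replicate number, for the 50 members (points, coloured by role and joined by grey lines). Black bars are the members' medians (0.10, 0.80 and 0.94) and dotted bars those of all genes tested (-0.05, 0.39 and 0.39), and the members spread far less at number 1 than at 2 and 3.

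The counts depended on these libraries. Without mutant replicate 1, limma called 22 members higher and 3 lower, where it called 35.6% of all genes higher and 21.2% lower. In that fit edgeR called 19 members higher and 7 lower and DESeq2 20 and 7, where edgeR called 27.5% and 29.2% of all genes and DESeq2 28.8% and 29.9%. Without wild-type replicate 1, limma called 34 members higher and 2 lower, where it called 34.1% and 15.3% of all genes. There edgeR called 25 members higher and 3 lower and DESeq2 26 and 3, where edgeR called 24.7% and 21.4% of all genes and DESeq2 27.6% and 25.7%. With both left out limma called 39 higher and 4 lower, namely NEK2, CDC20, PTTG1 and SPC24, with 53.1% of all genes called higher and 29.1% lower, and the members' median was 0.88 against 0.39 for all genes. Without mutant replicate 2, mutant replicate 3, wild-type replicate 2 or wild-type replicate 3, limma called none of the members. Of all genes it then called between 0 and 6 higher. At an unadjusted p under 0.05 from limma, between 16 and 19 members were higher and none lower. All genes were not counted at that threshold with these libraries left out, so those member counts have no background. In those 4 fits edgeR called none and DESeq2 called between 3 and 5 of the 50 members higher, near the background of 6.77% to 7.92% of all genes. With any 1 library left out, the members' median was between 0.51 and 0.83 with limma, between 0.29 and 0.52 with edgeR and between 0.28 and 0.51 with DESeq2.

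**Figure D3:**
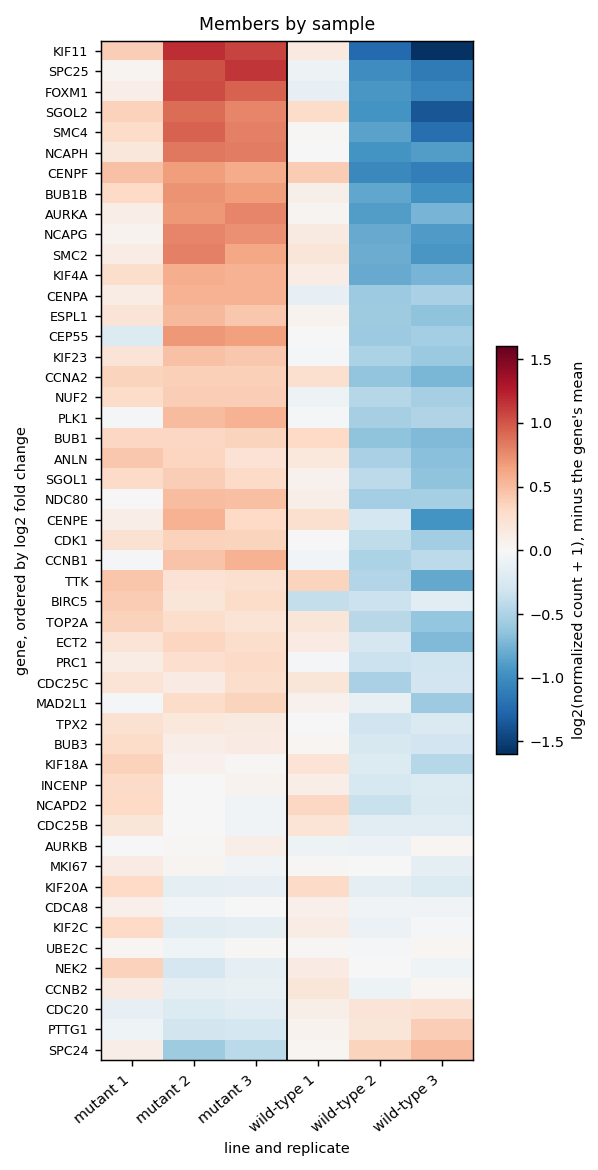
The 50 members (rows, ordered by log2 fold change) in the 6 samples (columns, mutant left of the line), as log2(normalized count + 1) minus the gene's mean over the samples. Mutant replicates 2 and 3 are red in the upper rows and wild-type replicates 2 and 3 are blue, and both samples numbered 1 lie between them.

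Among CDK1, its cyclins and regulators, limma called 2 of 7 members higher, where it called 17.3% of all genes. The median of the 7 was 0.65, and the counts by role rest on few genes. FOXM1, the transcription factor that drives many genes of G2 and mitosis, had 1974, 3787 and 3522 normalized counts in mutant cells, against 1667, 960 and 891 in wild-type cells. All mutant samples were above all wild-type samples, by little between the samples numbered 1, and the fold change was 1.40 ± 0.33 (adjusted p = 0.041 from limma, 0.039 from edgeR). CDK1, the kinase that triggers entry into mitosis, had 8792, 9540 and 9468 in mutant cells and 7361, 5574 and 5034 in wild-type cells. Its samples did not overlap either, and the fold change was 0.65 ± 0.17 (adjusted p = 0.043 from limma, 0.070 from edgeR).

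The cyclins that bind CDK1 gave unequal values, and none was called. CCNB1, cyclin B1, had 7176, 10050 and 10754 normalized counts in mutant cells, against 7133, 5168 and 5476 in wild-type cells. The lines differed in replicates 2 and 3 and were level in replicate 1, and its fold change of 0.65 was not called (adjusted p = 0.053 from limma). CCNB2, cyclin B2, had 5080, 4112 and 4219 in mutant cells and 5260, 4350 and 4691 in wild-type cells, overlapping ranges with a fold change of -0.09 ± 0.15. The ratio of CCNB1 to CCNB2, per kb of transcript, was 1.04, 1.79 and 1.87 in mutant cells, against 0.995, 0.871 and 0.856 in wild-type cells. CCNA2, cyclin A2, had mutant samples of 5569 to 5683 above wild-type samples of 2621 to 5206, with a fold change of 0.74 (adjusted p = 0.066 from limma). It shares exon bases with EXOSC9 on the other strand. The phosphatases that switch CDK1 on showed fold changes of 0.09 (CDC25B) and 0.43 (CDC25C), neither called.

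Of the mitotic kinases and the chromosomal passenger complex, 2 of 7 were called higher, where 17.3% of all genes were. Their median was 0.25, level with that of all genes. AURKA, Aurora A, the kinase of centrosomes and spindle poles, had 2867, 4302 and 4554 normalized counts in mutant cells, against 2730, 1430 and 1589 in wild-type cells. The lines were close in replicate 1 and far apart in the other replicates, and the fold change was 1.06 ± 0.29 (adjusted p = 0.043 from limma, 0.046 from edgeR). PLK1, the polo kinase that acts from mitotic entry to cytokinesis, had 4258, 6191 and 6398 in mutant cells and 4305, 3031 and 3132 in wild-type cells. Its samples numbered 1 were level, so the ranges overlapped, and its fold change of 0.68 was not called (adjusted p = 0.054 from limma). NEK2, a centrosome kinase, had 6979, 4477 and 4840 in mutant cells and 5900, 5426 and 5179 in wild-type cells. Its mutant replicate 1 was the highest of the 6 samples and its other mutant samples were the lowest, and the fold change was -0.04 ± 0.19.

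Within the chromosomal passenger complex, which corrects attachments of chromosomes to the spindle, BIRC5 differed between the lines and its partners were not called. BIRC5 encodes survivin, the subunit that brings the complex to centromeres. It had 12792, 11000 and 11826 normalized counts in mutant cells, against 7364, 7570 and 8548 in wild-type cells. The ranges were well apart, and the fold change was 0.60 ± 0.13 (adjusted p = 0.040 from limma, 0.158 from edgeR, 0.181 from DESeq2). It was the member whose samples numbered 1 differed most, by 0.80, against 0.54 and 0.47 at numbers 2 and 3. The 45 other genes tested within 2 Mb of BIRC5 on chromosome 17 had medians of 0.52, 0.57 and 0.48 at the same numbers. Whether the position of BIRC5 bears on its level was not tested.

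The kinase of the complex, AURKB (Aurora B), had 1927, 1933 and 2063 normalized counts in mutant cells and 1818, 1801 and 1960 in wild-type cells, with a fold change of 0.09 ± 0.14. The scaffold INCENP had a fold change of 0.25 ± 0.16 and borealin, CDCA8, one of 0.03 ± 0.14. Neither was called, and all 3 had overlapping ranges. The ratio of BIRC5 to AURKB, per kb of transcript, was 3.20, 2.75 and 2.77 in mutant cells, against 1.96, 2.03 and 2.11 in wild-type cells. No mutant sample was within the wild-type range of that ratio. The 85 other genes tested within 2 Mb of AURKB, also on chromosome 17, had medians of -0.48, -0.30 and -0.42 at numbers 1, 2 and 3.

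**Figure D4:**
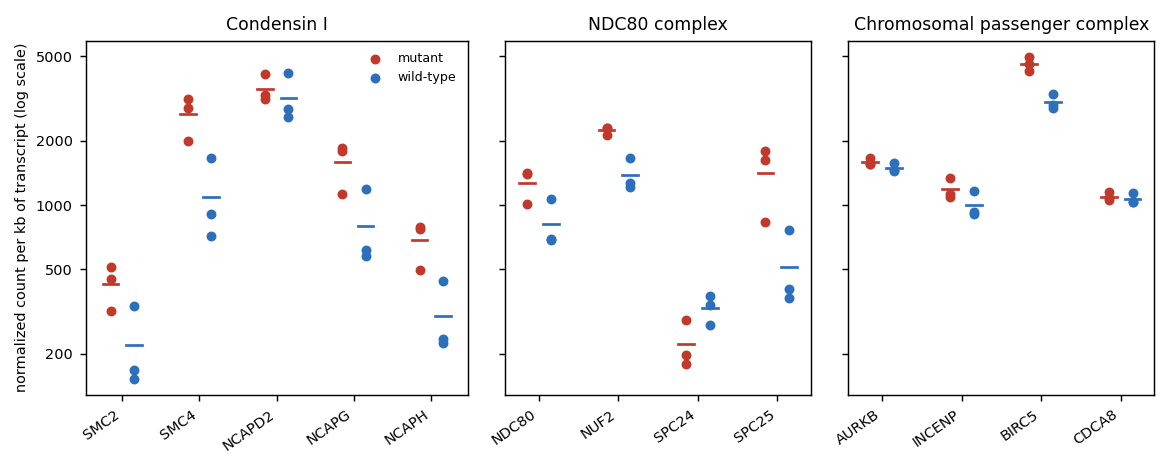
Normalized count per kb of transcript (log axis) for the subunits of condensin I, the NDC80 complex and the chromosomal passenger complex, with 3 mutant samples left of 3 wild-type samples for each gene and bars at the means. SMC4, NCAPH, NUF2, SPC25 and BIRC5 are higher in every mutant sample than in every wild-type sample, and the ranges of the other 8 subunits overlap.

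The spindle assembly checkpoint holds anaphase until every kinetochore is attached. Of its 5 members, 1 was called higher, near the 17.3% of all genes, and the members' median was 0.62. BUB1B, which encodes BubR1, the subunit that inhibits the anaphase-promoting complex, had 5960, 7872 and 7598 normalized counts in mutant cells, against 5105, 2694 and 2455 in wild-type cells. All mutant samples were above all wild-type samples, and the fold change was 1.13 ± 0.29 (adjusted p = 0.042 from limma, 0.044 from edgeR). BUB1B shares exon bases with PAK6 on the same strand. BUB1, the kinase that recruits the others to the kinetochore, had 8850, 8864 and 8962 in mutant cells and 8791, 4504 and 4323 in wild-type cells. Wild-type replicate 1 was at the mutant level and wild-type replicates 2 and 3 were far below it, with log2 differences of 0.01, 0.98 and 1.05 at numbers 1, 2 and 3, and BUB1 was not called (adjusted p = 0.086 from limma). BUB3, the partner that brings BUB1 and BUB1B to kinetochores, had 19279, 16987 and 17272 in mutant cells and 16156, 13168 and 12702 in wild-type cells. Its ranges did not overlap, and its fold change of 0.36 was not called (adjusted p = 0.090 from limma). TTK, the kinase MPS1 that starts the signal, and MAD2L1, which binds CDC20, had fold changes of 0.62 and 0.42 with overlapping ranges and were not called.

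Among the genes of anaphase, sister chromatid release and its protection, the directions were mixed, with a median of 0.33. Limma called 2 of the 6 members higher, where it called 17.3% of all genes. CDC20, which activates the anaphase-promoting complex, had 13759, 12891 and 13308 normalized counts in mutant cells, against 16012, 17370 and 17767 in wild-type cells. Every mutant sample was below every wild-type sample. The fold change was -0.36 ± 0.12 (adjusted p = 0.060 from limma, 0.0498 from edgeR, 0.013 from DESeq2). PTTG1, securin, the inhibitor of separase, had 5274, 4503 and 4535 in mutant cells and 5759, 6303 and 7287 in wild-type cells. Its ranges were also apart, with a fold change of -0.43 (adjusted p = 0.064 from limma, 0.052 from edgeR, 0.019 from DESeq2). PTTG1 has close relatives in the genome that can share its reads, so its counts are uncertain. UBE2C, the ubiquitin-conjugating enzyme of the same complex, had 5493, 5118 and 5433 in mutant cells and 5438, 5270 and 5462 in wild-type cells, a fold change of -0.01 ± 0.12.

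ESPL1, separase, the protease that cuts cohesin at anaphase, was higher. It had 3209, 3966 and 3763 normalized counts in mutant cells, against 2889, 1866 and 1784 in wild-type cells, with a fold change of 0.77 ± 0.22 (adjusted p = 0.044 from limma, 0.055 from edgeR). SGOL2, a shugoshin, the family that protects centromeric cohesin, had 3295, 4720 and 4384 in mutant cells and 3130, 1311 and 984 in wild-type cells. The lowest mutant sample was just above the highest wild-type sample, and the fold change was 1.36 ± 0.41 (adjusted p = 0.048 from limma, 0.065 from edgeR). SGOL2 shares exon bases with KCTD18 on the other strand. SGOL1, the shugoshin of mitotic centromeres, had 712 to 759 in mutant cells, against 368 to 604 in wild-type cells, and its fold change of 0.67 was not called (adjusted p = 0.064 from limma). Per kb of transcript, CDC20, UBE2C and PTTG1 held the first 3 places of the 50 members in both lines, at 8077, 6883 and 6672 in mutant cells and 10340, 6937 and 9021 in wild-type cells. The lowest 3 per kb were SPC24 (221), SGOL1 (237) and CDC25C (318) in mutant cells.

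**Figure D5:**
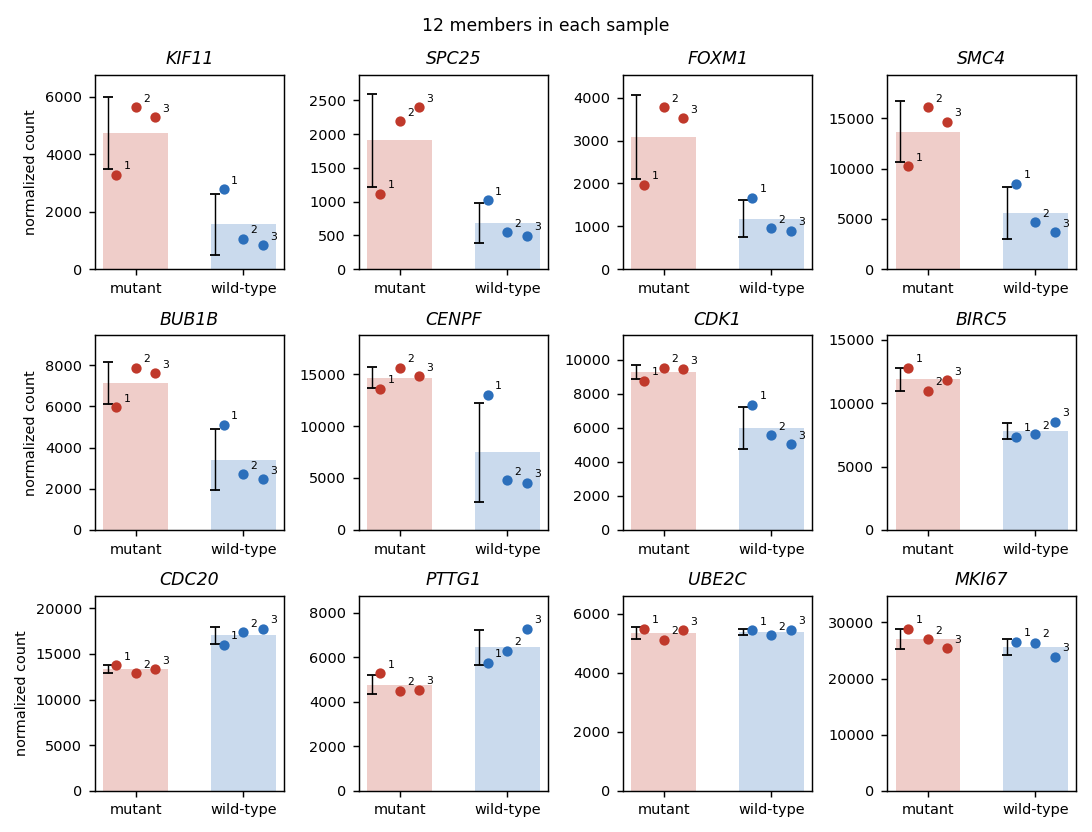
Normalized counts of 12 members in each sample (points, numbered by replicate), with bars at the means and error lines of ± SD (n = 3 a line), mutant left of wild-type. KIF11, SPC25, FOXM1, SMC4, BUB1B, CENPF, CDK1 and BIRC5 are higher in every mutant sample, CDC20 and PTTG1 are lower in every mutant sample, and UBE2C and MKI67 overlap.

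At the kinetochore and centromere, 3 of 7 members were called higher, where 17.3% of all genes were, and the members' median was 0.72. SPC25, a subunit of the NDC80 complex that grips microtubules, had 1120, 2195 and 2404 normalized counts in mutant cells, against 1025, 543 and 493 in wild-type cells. Replicates 2 and 3 differed by 2.01 and 2.28 on the log2 scale and the samples numbered 1 by 0.13, and the fold change was 1.48 ± 0.39 (adjusted p = 0.042 from limma, 0.041 from edgeR). NUF2, of the same complex, had 4210, 4510 and 4525 in mutant cells and 3253, 2499 and 2376 in wild-type cells. The ranges were apart, with wild-type replicate 1 above the other wild-type samples, and the log2 differences were 0.37, 0.85 and 0.93 at numbers 1, 2 and 3. The fold change of NUF2 was 0.72 ± 0.16 (adjusted p = 0.040 from limma, 0.046 from edgeR). NDC80 itself had 2150, 3000 and 2985 in mutant cells and 2281, 1458 and 1477 in wild-type cells, and its fold change of 0.66 was not called (adjusted p = 0.068 from limma). SPC24, the direct partner of SPC25, had 658, 412 and 451 in mutant cells and 624, 780 and 859 in wild-type cells. It was lower in mutant replicates 2 and 3 than in any wild-type sample, mutant replicate 1 was within the wild-type range, and the fold change of -0.59 was not called (adjusted p = 0.099 from limma, 0.037 from DESeq2).

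SPC24 and SPC25 bind each other in the complex, and their RNAs ran opposite ways in replicates 2 and 3. The ratio of SPC25 to SPC24, per kb of transcript, was 2.90, 9.10 and 9.09 in mutant cells, against 2.80, 1.19 and 0.979 in wild-type cells. The samples numbered 1 had nearly the same ratio and the others were far apart. CENPA, the histone variant that marks the centromere, had 1164, 1572 and 1575 normalized counts in mutant cells, against 982, 715 and 746 in wild-type cells. Its ranges were apart, with a fold change of 0.82 ± 0.21 (adjusted p = 0.042 from limma, 0.046 from edgeR). CENPF, a large protein of the outer kinetochore, had 13585, 15613 and 14809 in mutant cells and 13014, 4796 and 4565 in wild-type cells. Wild-type replicate 1 was near the mutant samples and far above the other wild-type samples, and the fold change of 1.15 ± 0.38 was not called (adjusted p = 0.057 from limma). CENPE, the kinetochore motor, had a fold change of 0.65 with overlapping ranges and was not called.

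Of the spindle motors and spindle assembly factors, 3 of 7 were called higher, where 17.3% of all genes were, and their median was 0.37. KIF11, the kinesin Eg5 that pushes the spindle poles apart, had the highest fold change of the 50 members. It had 3290, 5650 and 5285 normalized counts in mutant cells, against 2789, 1057 and 834 in wild-type cells. The samples numbered 1 differed by 0.24 on the log2 scale, those numbered 2 and 3 by 2.42 and 2.66, and the fold change was 1.77 ± 0.45 (adjusted p = 0.042 from limma, 0.045 from edgeR). KIF4A, the chromokinesin that works with PRC1 on the midzone, had 3996, 4889 and 4843 in mutant cells and 3576, 1871 and 1967 in wild-type cells. Its fold change was 0.95 ± 0.26 (adjusted p = 0.044 from limma, 0.052 from edgeR), and it shares exon bases with PDZD11 on the other strand.

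KIF23, the motor of the centralspindlin complex, had 4996, 6020 and 5870 normalized counts in mutant cells, against 4286, 3051 and 2871 in wild-type cells. All mutant samples were above all wild-type samples, with a fold change of 0.74 ± 0.19 (adjusted p = 0.042 from limma, 0.0496 from edgeR). TPX2, the activator of Aurora A on the spindle, had 15436, 14632 and 14474 in mutant cells and 12998, 10478 and 11111 in wild-type cells. Its ranges were apart by a small margin, and its fold change of 0.37 was not called (adjusted p = 0.070 from limma). Motors with overlapping ranges were KIF2C, the depolymerase of the centromere (fold change 0.00 ± 0.17), KIF20A, the midzone motor MKLP2 (0.03 ± 0.21), and KIF18A, which damps chromosome movements (0.30 ± 0.21). KIF2C had 10434, 7445 and 7570 in mutant cells and 9061, 7862 and 8247 in wild-type cells, so that mutant replicates 2 and 3 were below every wild-type sample and mutant replicate 1 was above them.

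None of the 4 cytokinesis members was called by limma, edgeR or DESeq2, where limma called 17.3% of all genes higher. All 4 had a limma unadjusted p under 0.05 and a positive fold change, with a median of 0.62. CEP55, which recruits the machinery that cuts the last bridge between daughter cells, had 3113, 5838 and 5668 normalized counts in mutant cells, against 3616, 2406 and 2476 in wild-type cells. Its order was turned round between the samples numbered 1, and the fold change was 0.75 ± 0.29 (adjusted p = 0.077 from limma). ANLN, anillin, the scaffold of the contractile ring, had 12332, 11583 and 10744 in mutant cells and 10266, 6376 and 5745 in wild-type cells. Its ranges were apart, with a fold change of 0.68 (adjusted p = 0.059 from limma). The ranges of PRC1, which bundles midzone microtubules, and of ECT2, which activates RhoA at the cleavage site, were apart too, with fold changes of 0.46 and 0.56 (adjusted p = 0.052 and 0.077 from limma).

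Chromosome structure had the highest median of the 8 roles, 1.03, with 3 of 7 members called higher, where 17.3% of all genes were. SMC4, an ATPase of condensin, the ring complex that compacts mitotic chromosomes, had 10267, 16139 and 14650 normalized counts in mutant cells, against 8485, 4655 and 3642 in wild-type cells. All mutant samples were above all wild-type samples, with a fold change of 1.36 ± 0.33 (adjusted p = 0.041 from limma, 0.041 from edgeR), and SMC4 shares exon bases with TRIM59 on the other strand. NCAPH, the kleisin subunit that closes the ring of condensin I, had 2987, 4740 and 4652 in mutant cells and 2639, 1359 and 1417 in wild-type cells, with a fold change of 1.23 ± 0.31 (adjusted p = 0.041 from limma, 0.041 from edgeR). NCAPG, a HEAT-repeat subunit of condensin I, had 5172, 8538 and 8200 in mutant cells and 5450, 2832 and 2641 in wild-type cells. It was the only one of the 16 called members whose ranges overlapped, since wild-type replicate 1 was above mutant replicate 1, and its fold change was 1.05 ± 0.32 (adjusted p = 0.049 from limma, 0.059 from edgeR). NCAPG shares exon bases with LCORL on the other strand.

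The remaining condensin I subunits were not called by limma. SMC2, the partner of SMC4, had 1888, 3026 and 2665 normalized counts in mutant cells and 1986, 999 and 906 in wild-type cells, a fold change of 1.03 (adjusted p = 0.054 from limma, 0.067 from edgeR, 0.034 from DESeq2). NCAPD2, the other HEAT-repeat subunit, had 19860, 15865 and 15272 in mutant cells and 20127, 12461 and 13567 in wild-type cells, with a fold change of 0.17 ± 0.21. Within one complex the RNAs thus differed in how far the lines were apart. The ratio of NCAPH to NCAPD2, per kb of transcript, was 0.120, 0.239 and 0.244 in mutant cells, against 0.105, 0.0873 and 0.0836 in wild-type cells. The ratio of SMC4 to NCAPD2 was 0.488, 0.959 and 0.905 in mutant cells, against 0.398, 0.352 and 0.253 in wild-type cells. In both ratios every mutant sample was above every wild-type sample.

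MKI67, the Ki-67 protein that coats mitotic chromosomes and is read as a mark of cycling cells, was not called and had overlapping ranges. It had 28885, 27024 and 25372 normalized counts in mutant cells, against 26593, 26388 and 23909 in wild-type cells, with a fold change of 0.08 ± 0.13. The ratio of FOXM1 to MKI67, per kb of transcript, was 0.245, 0.502 and 0.497 in mutant cells, against 0.224, 0.130 and 0.133 in wild-type cells. TOP2A, the topoisomerase that untangles sister chromatids, had 15297, 14380 and 13855 in mutant cells and 13559, 8706 and 7755 in wild-type cells. Its ranges were apart, close at number 1, and its fold change of 0.58 was not called (adjusted p = 0.074 from limma).

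Other genes of the same machinery were read from lists of their own. The background for each list is the 17.3% of all genes that limma called higher and the 10.0% that it called lower. Of 30 further kinetochore and centromere genes, limma called 11 higher and none lower, with a median of 0.78. SKA2, of the complex that keeps kinetochores on shrinking microtubules, had 2662, 4912 and 4858 normalized counts in mutant cells, against 1466, 1019 and 938 in wild-type cells, a fold change of 1.83 ± 0.29 (adjusted p = 0.027 from limma). MIS12, of the kinetochore complex that holds NDC80, had 641, 1364 and 1426 in mutant cells and 480, 147 and 133 in wild-type cells. Its fold change was 2.34 ± 0.55 (adjusted p = 0.040 from limma). Of 32 further spindle and cytokinesis genes, 9 were higher and none lower, with a median of 0.39, among them the kinesin KIF15 (1.05) and the microtubule-binding proteins GTSE1 (1.21) and CLASP2 (1.41). Of 8 genes of centriole duplication, 3 were higher and none lower, with a median of 0.73, namely CEP192, CEP135 and SASS6. At an unadjusted p under 0.05, limma had 1 of the 30, none of the 32 and 1 of the 8 lower, DESeq2 called 1 of the 30 and 1 of the 8 lower, and edgeR called none lower.

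The 17 subunits and partners of the anaphase-promoting complex had a median of 0.37. Limma called 4 higher and 1 lower, near the background of 17.3% and 10.0% of all genes. The subunit CDC27 had 8631, 12886 and 12425 normalized counts in mutant cells, against 5425, 3923 and 3514 in wild-type cells, a fold change of 1.40 ± 0.23 (adjusted p = 0.028 from limma). Also higher were the subunit ANAPC7 (1.18), the inhibitor FBXO5 (1.41) and the conjugating enzyme UBE2D1 (1.51), while UBE2S, the enzyme that extends the chains, was lower (-1.03). Among 12 genes that hold back entry or control phosphatases, ARPP19, an inhibitor of PP2A, was higher (1.10), as was the phosphatase CDC14B (0.67), and PPP2R2A, a PP2A subunit, was lower (-0.53). Of the 3 subunits of condensin II alone, NCAPG2 was higher (0.92), and NCAPD3 and NCAPH2 were not called.

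Of 16 regulators of G2 and mitosis genes in the DREAM, MuvB and MYB group, limma called 9 higher and 1 lower, with a median of 1.03. Over all genes it called 17.3% higher and 10.0% lower, the background for each list here. RBBP4, a histone chaperone shared by several complexes, had 10448, 10252 and 10439 normalized counts in mutant cells, against 7961, 4245 and 4416 in wild-type cells, a fold change of 0.97 (adjusted p = 0.042 from limma). RBL1, the pocket protein p107 of DREAM, had a fold change of 1.65 and the MuvB subunit LIN54 one of 1.34. LIN37, the MuvB subunit needed for repression by DREAM, was lower, with 519, 381 and 425 in mutant cells and 844, 1100 and 1106 in wild-type cells, a fold change of -1.20 ± 0.22 (adjusted p = 0.033 from limma). For comparison, 17 of 28 genes of replication licensing and forks were higher and none lower, with a median of 1.13. Of 17 tested G1 cyclins, CDKs and their inhibitors, 7 were higher and 2 lower, with a median of 0.67. At an unadjusted p under 0.05, 24 of the 28 replication genes were higher and none lower, and edgeR and DESeq2 called none lower. The members' median of 0.65 thus stood below that of the replication list and above the 0.24 of all genes, and the difference between these lists was not tested.

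The members lie on 18 chromosomes. The other genes tested within 2 Mb had a median log2 fold change of 0.79 around CDK1 (8 genes), 0.77 around FOXM1 (24 genes), 0.92 around SMC4 (12 genes) and 0.62 around KIF11 (23 genes). Around other members called higher it was -0.33 (AURKA, 15 genes), -0.10 (ESPL1, 55 genes), 0.00 (NUF2, 15 genes) and 0.01 (NCAPH, 33 genes). Around PTTG1 and MKI67, which limma did not call, it was 1.12 (11 genes) and 0.81 (4 genes). Whether position bears on the members' levels was not tested. By the GENCODE 44 annotation on GRCh37, 12 members share exon bases with another protein-coding gene, 1 on the same strand and 11 on the other. The strand setting of the counting is not given in the sources used here, so reads of those pairs cannot be told apart. KIF11 lies on chromosome 10 from 94333862 to 94415152, SMC4 on chromosome 3 from 160117062 to 160152742 and BIRC5 on chromosome 17 from 76210267 to 76221717, all on the plus strand. CDC20 lies on chromosome 1 from 43824652 to 43828874 and MKI67 on chromosome 10 from 129894923 to 129924687, CDC20 on the plus and MKI67 on the minus strand.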

How the data were processed

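The submitters' processing notes name CASAVA 1.8.2, TopHat2 2.1.0, HTSeq, DESeq and the build hg19, and the study's methods describe removal of ribosomal RNA and paired-end sequencing, although the molecule label reads polyA RNA. The table was deposited as signal values: the authors had scaled the read count of each gene by a size factor of its sample. Each label named its sample's column and line. The fold changes and p-values that stand beside them in the table were made by the authors and were not used. All values of a sample (100%) were multiples of the same step within 0.001 of a read, so whole reads were recovered.

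Genes that averaged 10 or more normalized counts were tested, after a pseudocount of 1 and log2, with limma 3.58.1 (moderated test with a trend, no covariate, Benjamini-Hochberg over all genes tested), in R 4.3.3. edgeR 4.0.16 (quasi-likelihood) and DESeq2 1.42.0 were run on the recovered reads as alternatives, beside TMM rescaling, other filters, other pseudocounts, a replicate block and the removal of libraries. The fits were tested on simulated data. The members, role groups and other lists, and the removal of both samples numbered 1, were chosen with earlier results of these data known. Positions, lengths of canonical transcripts and exon overlaps came from GENCODE 44 on GRCh37, and promoters from RefSeq on GRCh38.p14. Tables and figures used Python 3.11.15 with pandas 2.3.3, numpy 2.4.6 and matplotlib 3.10.9. All 50 members may be named, and values in every sample are given for those called by limma and for the member with the largest change or the highest mean in each role group. Up to 4 called genes of each other list, those with the smallest p, are named, with LIN37, UBE2S and PPP2R2A as members called lower. Further genes and ratios were picked after their values were seen.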

Additional observations from a re-analysis of the deposited data

How the results depend on the processing

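With 16 members called higher and 0 lower as the starting point, edgeR gave 10 and 1, DESeq2 16 and 3, TMM rescaling 14 and 2, a pseudocount of 10 gave 17 and 0, and removal of both samples numbered 1 gave 39 and 4. Of all genes, TMM rescaling called 14.9% higher and 14.5% lower, and a pseudocount of 10 called 18.3% and 10.7%. The shares for edgeR, DESeq2 and the removal of both samples numbered 1 are given above. Leaving out 1 library gave 0 to 34 higher and 0 to 3 lower with limma, 0 to 25 and 0 to 7 with edgeR, and 3 to 26 and 0 to 7 with DESeq2. The replicate block gave 0 higher and 0 lower, and of all genes it also called 0 higher and 0 lower. At an unadjusted p under 0.05 from limma it had 21 members higher and 0 lower. All genes were not counted at that threshold in this fit, so the 21 has no background. The deviations of same-numbered samples from their line correlated at -0.53, -0.43 and -0.31. Since both samples numbered 1 stood apart from their line, these correlations cannot show whether the numbers pair the samples. No label pairs them, and whether the fit with or without the block is the right one was not tested. The filters and a pseudocount of 0.5 left 16 and 0, where these fits called 13.2% to 18.7% of all genes higher and 8.01% to 9.90% lower. Ranges of adjusted p were taken over the alternatives other than edgeR and DESeq2 with 1 library left out. There the adjusted p of the 16 ranged from 7.77e-07 to 0.181 and that of CDC20 from 0.000258 to 0.221. The members' median kept its sign in all these fits, and the cause of the changes in counts was not tested.

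Signs were compared over the alternatives other than edgeR and DESeq2 with 1 library left out. They changed in 9 members, none of them called by limma on all 6 samples. Of these, NEK2 was called lower (-0.19) and CDC25B (0.15) and NCAPD2 (0.26) higher with both samples numbered 1 left out, and NEK2, KIF2C and KIF20A were called lower by edgeR and DESeq2 without mutant replicate 1. With DESeq2, the log2 fold change was -0.064 for NCAPD2, -0.14 for CDC25B, -0.16 for MKI67, -0.16 for AURKB, -0.18 for KIF20A, -0.21 for CDCA8 and -0.21 for KIF2C. With edgeR it was -0.057 for NCAPD2, -0.13 for CDC25B, -0.15 for MKI67, -0.15 for AURKB, -0.17 for KIF20A, -0.20 for CDCA8 and -0.20 for KIF2C. With TMM rescaling it was -0.066 for NCAPD2, -0.14 for CDC25B, -0.15 for AURKB, -0.15 for MKI67, -0.20 for KIF20A, -0.20 for CDCA8 and -0.23 for KIF2C. On these 3 scales the all-gene median was 0.01, in place of 0.24. Without both samples numbered 1, KIF2C was at -0.10. With limma, leaving out 1 library turned the sign of CDCA8 (-0.0028 to 0.078), KIF20A (-0.12 to 0.20) and KIF2C (-0.16 to 0.086). It also turned that of NEK2 (-0.24 to 0.081) and UBE2C (-0.031 to 0.020). Depth limits the members little, since the lowest value of a member was 368 normalized counts (SGOL1 in wild-type replicate 3).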
